A study of Mus musculus with 66 samples.

Results

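The replication-dependent H2A, H3 and H4 genes of the mouse were taken as every row whose gene symbol reads Hist, 1 digit, h and then 2a, 3 or 4. Of the 76 rows of 3′-seq values, 39 matched, of which 16 were H2A, 12 were H3 and 11 were H4 genes. No row of the mRNA-Seq table matched (0 of 22489), so the values of these genes come from 3′-seq alone. One of the 39, Hist2h3c2, is listed there under the identifier of a predicted H3 locus and is annotated as a transcribed pseudogene.

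Histone genes of this kind lie in clusters, have no introns and are transcribed mainly in S phase, when new DNA has to be packed. Their mRNAs are unusual in that they normally end just after a conserved stem-loop and carry no poly(A) tail. The stem-loop is bound by SLBP, and cleavage needs the U7 snRNP, which includes Lsm10 and Lsm11. Some of these genes also have a polyadenylation signal further downstream, and polyadenylated transcripts from them have been described in cells that have left the cell cycle. 3′-seq reads only RNA with a poly(A) tail, so it samples those polyadenylated transcripts.

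3′-seq was made from brain, liver, skeletal muscle and testis of 8-week-old male C57BL/6 mice, with 2 libraries of each tissue, and from C2C12 cells, a mouse myoblast line. C2C12 had 1 library of cells growing in 20% fetal bovine serum and 1 of cells kept for 48 h in 2% horse serum, in which they differentiate. mRNA-Seq was made from the untagged C2C12 line (WT) and from 9 lines that carry a doxycycline-inducible transgene for a GFP-tagged H3 variant (H3.3, H3.2, H3.1 and H3t, and the new variants H3mm16, H3mm13, H3mm12, H3mm11 and H3mm7). Each line had 1 growth and 1 differentiated library, so the 10 libraries of a state are different lines. The study calls the transgenic cells stable clones, selected for GFP, and how many clones a line holds is not given in the sources used here. The 2 replicate tables of a tissue are called 1 and 2 below, and nothing says which animals they came from, so p-values measure only the spread between these libraries.

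Values are in RPM, reads per 1000000 uniquely mapped reads. Uniquely mapped reads, which the size of the smallest RPM step gives, were 3602579 to 14060394 in the tissue libraries, 539990 in growing and 3952088 in differentiated C2C12 cells. A count of 0 allows up to 3 reads, or 0.213 to 0.833 RPM in a tissue library and 5.56 RPM in growing C2C12 cells. Intervals and this limit cover counting error only. Among histone rows that mark testis germ cells, Hist1h1t had 2 and 1 reads and Gm12260 (the H3t gene) 2 and 3 reads in the testis libraries and none in the other tissues, while Hist1h2ba had no read in any library and Hist1h2aa was not analysed here. The 3′-seq tables list histone genes only, so the other tissues could not be checked against their own markers.

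The stem-loop was searched for in the mm9 sequence in the 200 bases after the stop codon, on the strand of the gene and with up to 2 mismatches to the histone stem-loop consensus. All 38 genes with a reading frame held it, starting 22 to 59 bases after the stop codon. Hist1h2aj, annotated as a pseudogene, was not assessed. Over all 21837 coding genes, 0.49% of windows of the same length held such a stem-loop. The following 26 bases each show the stem-loop in capitals with its flanks in lower case, for the 5 genes with the most reads, for Hist1h3a, which lies beside one of them, and for Hist1h2ab and Hist1h2ae, which had no read.
Hist1h2ac: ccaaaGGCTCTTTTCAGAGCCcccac
Hist3h2a: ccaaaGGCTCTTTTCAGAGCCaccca
Hist2h3c1: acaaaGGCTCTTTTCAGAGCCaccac
Hist1h4a: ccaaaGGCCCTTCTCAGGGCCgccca
Hist1h3d: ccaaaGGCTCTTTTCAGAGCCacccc
Hist1h3a: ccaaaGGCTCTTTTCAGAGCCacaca
Hist1h2ab: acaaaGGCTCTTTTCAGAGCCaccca
Hist1h2ae: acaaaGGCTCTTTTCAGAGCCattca
These stretches lie at chr13:23775341-23775366 (minus strand) for Hist1h2ac, chr11:58768669-58768694 (plus) for Hist3h2a, chr3:96051245-96051270 (plus) for Hist2h3c1, chr13:23852664-23852689 (minus) for Hist1h4a, chr13:23668108-23668133 (plus) for Hist1h3d, chr13:23853754-23853779 (minus) for Hist1h3a, chr13:23843436-23843461 (plus) for Hist1h2ab and chr13:23662532-23662557 (minus) for Hist1h2ae, all in the 3′-UTR.

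The same 16 letters of the stem-loop were shared by 22 of the 38 genes, of which 9 had a read and 13 had none. Hist1h4a was the only gene with its variant of the stem-loop, at 1 mismatch to the consensus. These letters were therefore the same in many genes with and without reads.

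The members differed in what follows the stem-loop. The first AATAAA or ATTAAA after the stop codon, the hexamers that direct polyadenylation, was looked for on the gene's strand and lay inside the annotated 3′-UTR in 9 of 38 genes. It is shown in capitals below for the 4 genes of this group with 20 or more reads in all, with 10 bases on each side.
Hist1h2ac: gagggctgagAATAAAggcaatgcac
Hist3h2a: tgtctacaaaATTAAAggaagttcca
Hist2h3c1: ttttaatcccAATAAAaatttaacac
Hist1h4a: aaattgagtaAATAAAccttgagtgc
They lie at chr13:23774728-23774753 (minus strand), chr11:58770148-58770173 (plus), chr3:96052400-96052425 (plus) and chr13:23852574-23852599 (minus) of mm9, in the 3′-UTR, and the hexamer starts 651, 1526, 1191 and 126 bases after the stop codon. In the first 200 bases after the stop codon, 4 of the 38 genes (10.5%) held AATAAA or ATTAAA, against 27.5% of the windows of all coding genes.

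**Figure D1:**
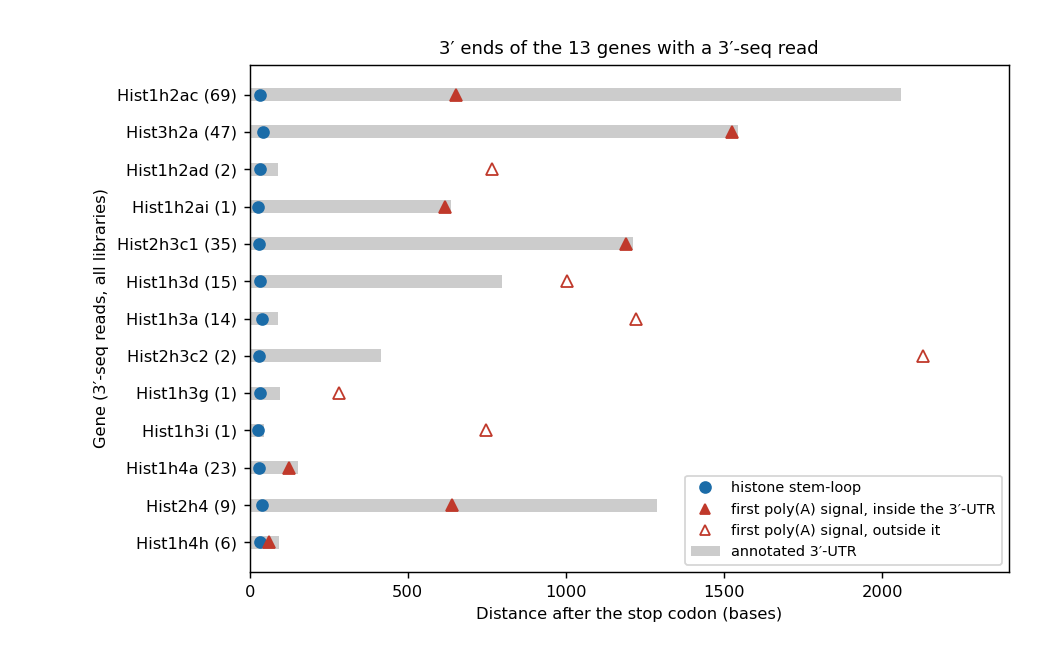
3′ ends of the 13 genes with a read, one per line, with the distance after the stop codon in bases on the x axis and the reads over all libraries in parentheses. Grey bars are the annotated 3′-UTR, circles the stem-loop and triangles the first AATAAA or ATTAAA (filled inside the 3′-UTR, open outside it); every stem-loop lies within 59 bases of the stop codon, while 7 of the 13 genes have a filled triangle.

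Most of these genes gave no read. Of the 39, 13 (33.3%) had at least 1 read in any library and 26 had none, and the counts were 4 of 16 H2A, 6 of 12 H3 and 3 of 11 H4 genes. All their reads together came to 225, of which 216 were in the tissue libraries. Hist1h2ac, Hist3h2a and Hist2h3c1 held 67.1% of them. In the same tables the 16 H2B rows, which are also replication-dependent core histone genes, had 11020 reads, 90.8% of them from Hist1h2bc, and the 5 H1 (linker histone) rows had 479.

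The 26 genes without a read were not all equally measurable. Reads that fit more than 1 place were discarded by the authors. For 4 genes (Hist1h4m, Hist1h4n, Hist2h2aa1 and Hist2h2aa2) no 31-base word of the annotated 3′-UTR occurs only once in the genome. For 3 more (Hist1h2af, Hist1h2ao and Hist1h2ap) the annotated 3′-UTR was shorter than such a word. For the other 18 assessed genes without a read at least 1 word occurred once, so reads could be placed in at least a part of the 3′-UTR. That part was small in some, with 7 such words in Hist2h3b, 10 in Hist1h2ak and 10.2% of the words in Hist1h3e. In 16 of these 18 the first poly(A) signal lay outside the annotated 3′-UTR, so that a transcript ending at it would end outside that window, and their 0 sets no limit on its level. H3f3b, an H3.3 gene used in every cell, was also at 0 in brain and liver of replicate 2, against 9 and 10 reads in replicate 1.

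Most reads of these genes came from those with a poly(A) signal inside the 3′-UTR. Of the 9 genes with such a signal 7 (77.8%) had a read, and they held 190 reads (84.4% of the members' reads). Of the 29 genes without it 6 (20.7%) had a read, with 35 reads in all. The 29 include all 7 genes whose 3′-UTR had no word occurring once in the genome or was shorter than a word. None of these 7 had a read, and none of the 9 was limited in this way. These shares therefore do not compare equally measurable genes. At least 5 reads were seen in 6 of the 9 and in 2 of the 29 genes, the latter being Hist1h3d and Hist1h3a. The exceptions with a signal and no read were Hist1h2ae and Hist1h4i. These are counts over genes that share libraries, given as a description without a test.

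The length of the 3′-UTR moved together with the signal. Annotated 3′-UTRs were 1 to 2058 bases long, with a median of 93.5. The median was 638 bases in the 9 genes with a signal inside and 78 in the 29 without. Of the 8 genes with 400 bases or more, 7 had a read, and of the 30 shorter genes 6 did. Since reads were counted in the 3′-UTR, a longer one is also a wider counting window, and the signal and the width of the window cannot be told apart here. Among the 30 shorter genes, 2 of 4 with a signal inside (Hist1h4a with 23 reads and Hist1h4h with 6) and 4 of 26 without one had a read. The 26 include the 7 genes whose 3′-UTR had no word occurring once or was shorter than a word. So the counts for the 26, and for the 30, hold genes in which reads could hardly be placed. The lengths come from GENCODE vM1 on mm9, and the annotation that the authors counted in is not given in the sources used here.

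**Figure D2:**
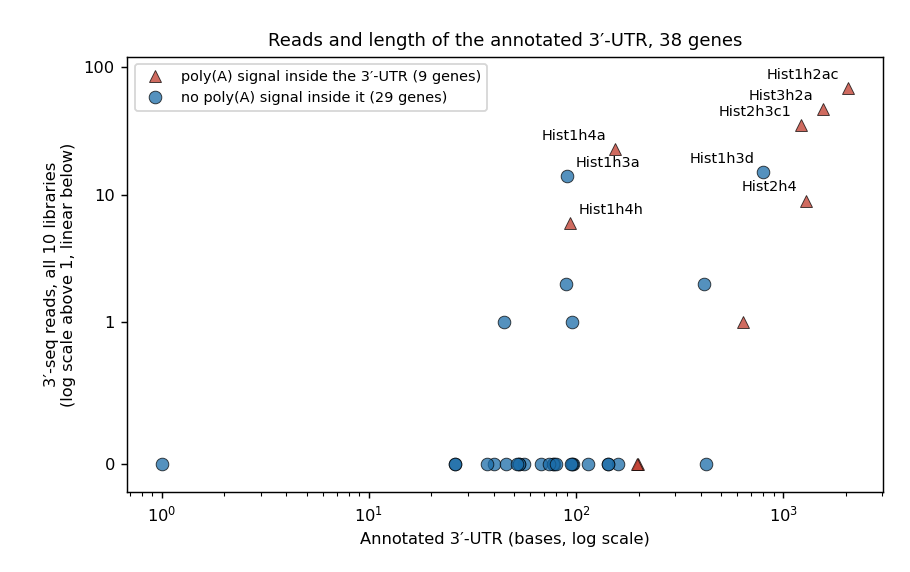
Reads of the 38 assessed genes summed over 10 libraries (y axis, log scale above 1 and linear below) against the length of the annotated 3′-UTR in bases (x axis, log scale). Triangles are the 9 genes with AATAAA or ATTAAA inside the 3′-UTR and circles the other 29; most circles sit at 0, and the 3 highest points are triangles with a 3′-UTR of 1212 to 2058 bases.

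Among the H2A genes, Hist1h2ac had the most reads and was highest in skeletal muscle. Hist1h2ac (chr13:23773336-23775817, minus strand) had 3.77 and 0.780 RPM in skeletal muscle of replicates 1 and 2, 0 and 0.272 RPM in testis, 0.171 and 0 RPM in brain, and 0 and 0.317 RPM in liver. Both skeletal muscle libraries lay above the other 6 libraries, but they differed from each other: 53 and 6 reads, with an adjusted p of 0.000198 in an exact binomial test between the replicate tables, adjusted over 26 gene and tissue combinations with a read. Of its 64 tissue reads, 82.8% came from 1 library, skeletal muscle of replicate 1. Its difference between the 4 tissues had an adjusted p of 0.257 (limma moderated F test, Benjamini-Hochberg). An annotated 5S_rRNA gene lies over its 3′-UTR on the same strand, and reads of these genes cannot be told apart where they overlap.

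Hist3h2a, the H2A gene of the small histone cluster on chromosome 11 (chr11:58768187-58770176, plus strand), was highest in testis. It had 5.27 and 1.36 RPM in testis, 0.225 and 0 RPM in liver, 0.683 and 1.03 RPM in brain, and 0.284 and 0.130 RPM in skeletal muscle. Both testis libraries lay above every library of the other tissues, and brain lay above liver and skeletal muscle. On the log2(RPM + 0.1) scale testis exceeded the mean of the other tissues by 2.92 (SE 0.79), with a limma adjusted p of 0.0389. By pooled reads testis was 7.31 times the other tissues (exact 95% interval 3.84 to 14.4). The testis replicates differed (19 and 10 reads, exact binomial adjusted p = 0.00407). The call was lost when either brain library, either skeletal muscle library, liver of replicate 2 or testis of replicate 1 was left out (limma adjusted p = 0.0678 to 0.167), with a difference between 1.98 and 3.05. The annotated gene Trim17 lies over its 3′-UTR on the same strand, and reads of these genes cannot be told apart there.

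The other H2A genes gave 3 reads between them, all in testis. Hist1h2ad had 2 reads in testis of replicate 1 and Hist1h2ai 1 read in testis of replicate 2. These values are below the limit of 3 reads, and no difference between tissues was detectable for them.

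Among the H3 genes, Hist2h3c1, which codes for H3.2, was seen most widely. Hist2h3c1 (chr3:96049477-96052431, plus strand) had 1.94 and 0.681 RPM in testis, 0.569 and 0.780 RPM in skeletal muscle, 0.451 and 0.317 RPM in liver, and 0.683 and 0 RPM in brain. It had a read in 7 of 8 tissue libraries, and the tissues overlapped: the lower testis library lay between the 2 skeletal muscle libraries. The F test over tissues gave an adjusted p of 0.490 (limma).

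Hist1h3a, which codes for H3.1, was read in testis only. It had 2.50 and 0.681 RPM in testis, from 9 and 5 reads, and 0 in the other 6 tissue libraries and in both C2C12 libraries. By pooled reads testis had 1.28 RPM (exact Poisson interval 0.699 to 2.15). The limit of 3 reads over the 6 libraries of the other tissues was 0.0679 RPM. The testis value was 18.8 times that limit, a ratio that leaves out the counting error of the testis reads. Hist1h3a was called between the 4 tissues (limma F test, adjusted p = 0.0269) and for testis against the mean of the others (adjusted p = 0.00542). The difference between its testis replicates did not pass the threshold (exact binomial adjusted p = 0.102). Hist1h3a entered the test through its testis reads alone, and the spread of its other tissues is that of 6 libraries at 0, so the calls add little to the reads themselves. The F test missed the threshold without any 1 library of brain, liver or skeletal muscle (limma adjusted p = 0.0631 to 0.122), with a pseudocount of 1 RPM (0.108) and with at least 10 reads required (0.0836).

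Hist1h3d, an H3.2 gene, had 0.142 and 1.04 RPM in skeletal muscle, 0 and 0.475 RPM in liver, 0.341 and 0 RPM in brain, and no read in testis. The skeletal muscle replicates differed (2 and 8 reads, exact binomial adjusted p = 0.0337), and the tissues overlapped. Hist1h3g and Hist1h3i had 1 read each, both in testis, and Hist2h3c2 had 1 read in liver of replicate 1.

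The H4 genes all code for the same protein, and 3 of them had reads, each with a pattern of its own. Hist1h4a had 6.11 and 0.136 RPM in testis and 0 in the other 6 tissue libraries. It was thus read in both testis libraries and in no other, with 22 reads in replicate 1 and 1 in replicate 2, which differed (exact binomial adjusted p = 9.83e-09). By pooled reads testis had 2.10 RPM (exact Poisson interval 1.33 to 3.15). This was 30.9 times the limit of 0.0679 RPM for the other tissues. That ratio leaves out the counting error of the testis reads, and 95.7% of them came from 1 library. The difference did not pass the test (limma, adjusted p = 0.0715 for testis against the others). It passed with a pseudocount of 0.01 RPM (adjusted p = 0.0301) and with at least 10 reads required (adjusted p = 0.0181), and like Hist1h3a it entered the test through testis alone. Hist1h4a (chr13:23852561-23853099) lies 622 bases downstream of Hist1h3a (chr13:23853722-23854255) on the same strand, and the first AATAAA after the stop codon of Hist1h3a, 1223 bases away, is the one in the 3′-UTR of Hist1h4a. A shared first signal is not particular to this pair. It was also found for Hist1h2ao with Hist1h4m, Hist1h2ap with Hist1h4n, and Hist2h2aa1 with Hist2h3c1.

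Hist1h4h had 0.284 and 0.260 RPM in skeletal muscle, from 4 and 2 reads, and none elsewhere. It was called between the 4 tissues (limma F test, adjusted p = 0.0248). By pooled reads skeletal muscle had 0.276 RPM, with a lower exact Poisson bound of 0.101 RPM. The pooled value was 3.07 times the limit of 0.0899 RPM for the other tissues. That ratio leaves out the counting error of the 6 skeletal muscle reads, and their lower bound lies only just above the limit. Hist1h4h entered the test through its skeletal muscle reads alone, so the call rests on 6 reads and on the lack of spread of 6 libraries at 0. The call was lost without liver of replicate 1. Hist2h4 had its highest values in brain, 0.341 and 0.516 RPM, with 0.213 and 0 RPM in skeletal muscle, 0 and 0.158 RPM in liver, and none in testis, and it was not called (adjusted p = 0.272).

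**Figure D3:**
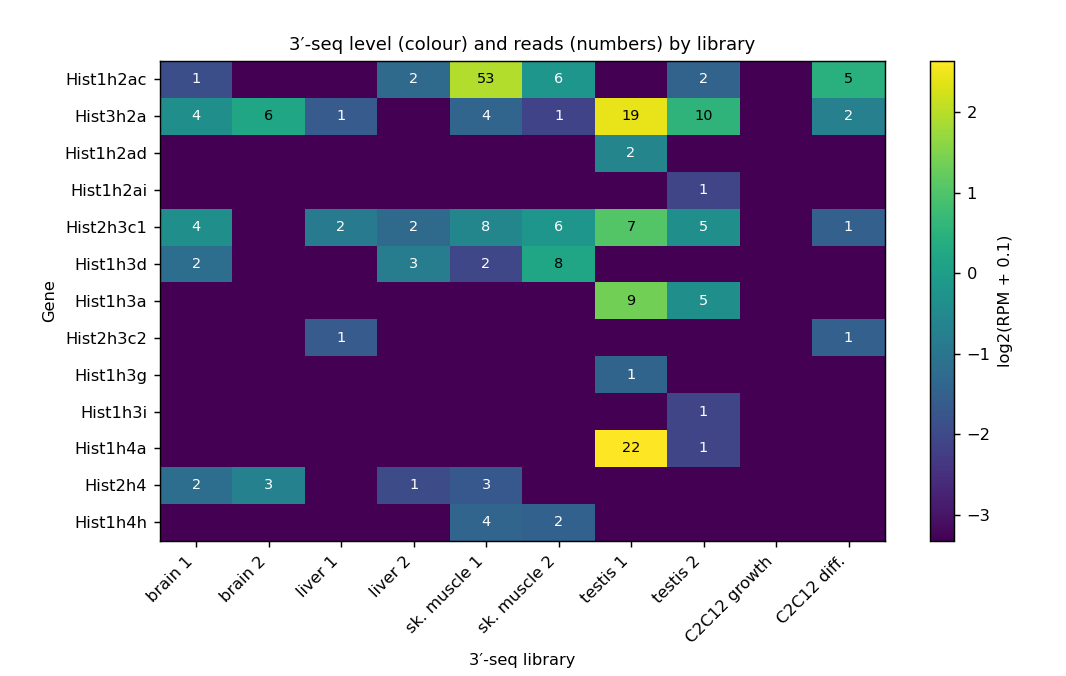
3′-seq level of the 13 genes with a read (rows) in each library (columns, both replicates of each tissue and both C2C12 libraries); the colour is log2(RPM + 0.1) and the numbers are reads, with 0 left blank. Hist1h3a, Hist1h4a, Hist1h2ad, Hist1h2ai, Hist1h3g and Hist1h3i have reads in testis columns only, and Hist1h2ac has 53 of its reads in skeletal muscle 1.

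Over all of them, 13 genes were tested, those with a read in a tissue library, and 2 were called between the 4 tissues (Hist1h3a and Hist1h4h), 15.4% of the 13. Of all 37 histone rows tested, 10.8% were called. For testis against the mean of the other tissues, 2 of the 13 (Hist1h3a and Hist3h2a) were called higher in testis, against 21.6% of all rows, and 0 lower, against 2.7%. At an unadjusted p under 0.05 the counts were 3 between tissues, 3 higher in testis and 0 lower. The share of all rows at that level is not given here, so these counts say nothing particular about the members. Of the 13 genes, 8 had reads in 1 tissue only and so were tested through the tissue in which they are high. The counts are therefore a description and no support for a difference between tissues. In these bulk tissues, fewer cells of a type and less RNA per cell cannot be told apart.

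Testis had the most members with a read, 9 of 39, against 6 in liver, 6 in skeletal muscle and 5 in brain. With reads in both replicate tables the counts were 4 in testis, 5 in skeletal muscle, 2 in brain and 1 in liver. Summed over the 39 genes, the level was 16.7 RPM (exact Poisson 95% interval 12.7 to 21.4) and 3.40 RPM (2.20 to 5.02) in the testis libraries. Skeletal muscle had 5.26 RPM (4.13 to 6.61) and 2.99 RPM (1.90 to 4.49). Brain had 2.22 RPM (1.18 to 3.79) and 1.55 RPM (0.708 to 2.94), and liver 0.901 RPM (0.246 to 2.31) and 1.27 RPM (0.547 to 2.50). The lower testis library overlapped both skeletal muscle libraries in these intervals, so only testis of replicate 1 stood apart. In that library H2A genes gave 5.83, H3 genes 4.72 and H4 genes 6.11 RPM.

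**Figure D4:**
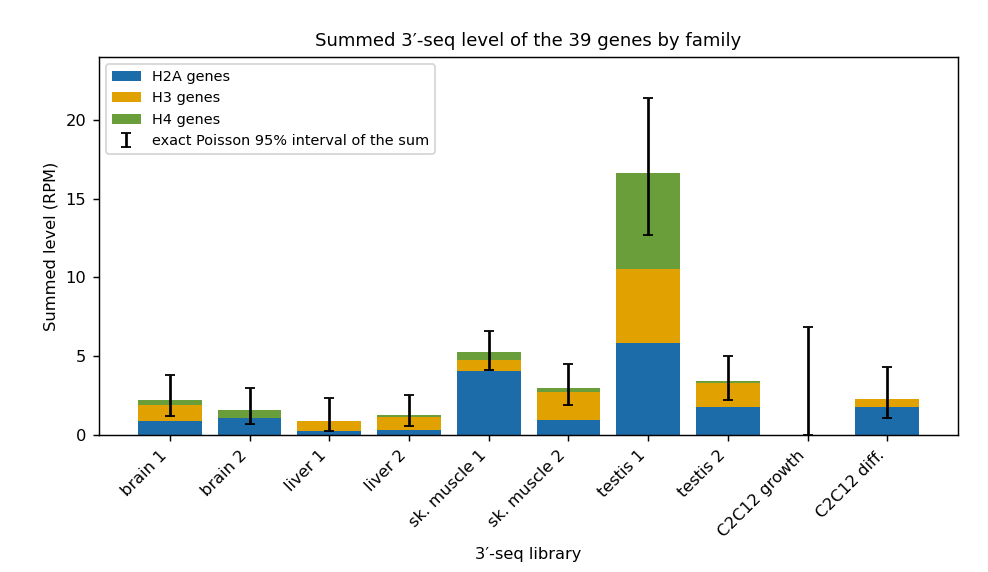
Level summed over the 39 genes (y axis, RPM) in each 3′-seq library (x axis), split into H2A, H3 and H4 genes; error bars are exact Poisson 95% intervals of the sum. Testis 1 reaches 16.7 RPM and its interval lies above those of the other tissue libraries, and growing C2C12 cells have no read, with an upper bound of 6.83 RPM.

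In C2C12 cells there was 1 library per state and so no test. Growing cells had no read of any of the 39 genes, which at this depth allows a summed level of up to 6.83 RPM (exact Poisson 95% bound). Differentiated cells had 9 reads, 2.28 RPM in all (1.04 to 4.32): 5 of Hist1h2ac, 2 of Hist3h2a, 1 of Hist2h3c1 and 1 of Hist2h3c2. The growing library's bound lies above the whole interval of the differentiated one, so a difference was not detectable at this depth.

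mRNA-Seq held no member, but it held genes of the machinery that makes and ends histone mRNAs. Growing and differentiated C2C12 lines were compared with limma on log2(FPKM + 1) over 10954 genes, of which 8.41% were called higher and 8.87% lower in growth. The labelled states were borne out by their markers: 6 of 6 markers of differentiated muscle were lower in growth, and Id1 and Id3 were higher, while Myf5 was not called and Pax7 was too low to test. Differences below are growth minus differentiated on the log2 scale, and a gene was called where its adjusted p fell below 0.05 and its difference reached 1.

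Of 17 genes of histone pre-mRNA 3′ end processing and histone gene transcription, 15 were tested, 4 were higher in growth, 0 were lower and 11 were not called, with a median difference of 0.54 against -0.04 over all genes tested. Slbp, which codes for the protein that binds the stem-loop, had 39.6 to 65.7 FPKM in growth (median 47.1) and 10.5 to 22.2 FPKM (median 13.6) in differentiated cells. The groups did not overlap, and the difference was 1.73 (SE 0.12, limma adjusted p = 9.10e-11), in the same direction in 10 of 10 lines. The other 3 were Casp8ap2, which codes for FLASH, a partner of the U7 snRNP (1.04, adjusted p = 5.62e-08), Srrt, a partner of the cap-binding complex (1.14, adjusted p = 2.99e-07), and Eri1, a nuclease that acts on the stem-loop (1.01, adjusted p = 5.11e-07), all by limma.

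The remaining genes of this list were not called. Of the 15 tested, 12 had a limma adjusted p under 0.05, the 4 called genes included. The share of all genes that pass on p alone is not given here, so this count says nothing particular about the list. Cstf2 (0.88) and Upf1 (0.73) had the largest differences among the genes not called. Npat, a coactivator of histone gene transcription, differed by 0.42 (adjusted p = 0.000546), and Lsm11 of the U7 snRNP by 0.44 (adjusted p = 0.00152), both short of the difference required. Lsm10, the partner of Lsm11, and Zcchc11, which adds uridines to RNA ends, differed the other way, by -0.61 and -0.48. Both were lower in growth in 10 of 10 lines but were not called.

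Of 14 genes of general polyadenylation all were tested and none was called in either direction by limma, with a median difference of 0.33. Of the 14, 12 had an unadjusted p under 0.05 and 10 an adjusted p under 0.05, all with a difference short of 1. The share of all genes that pass on p alone is not given here, so these counts say nothing particular about polyadenylation genes. Of 19 S phase genes 18 were higher in growth, with a median difference of 2.96. Cdk2 was the one not called, with a difference of 0.04.

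Of 8 histone variants tested from outside the replication-dependent families, 4 were higher in growth. Cenpa, the centromeric H3 variant, which is made mainly in G2, differed by 4.19, H2afx (H2A.X), whose mRNA can also end at a stem-loop, by 2.83, H1fx by 1.82 and H2afz (H2A.Z) by 1.77 (SE 0.69, limma adjusted p = 0.0321). The WT line stood apart for H2afz, with 26.2 FPKM in growth and 6.86 FPKM in differentiated cells, against at least 803 and 178 FPKM in the GFP-H3 lines, and without it the difference was 1.77 with an adjusted p of 4.69e-09. The call for H2afz was lost without the H3.1, H3.2, H3t, H3mm11, H3mm12, H3mm13 or H3mm16 line and with no filter on low values (limma adjusted p = 0.0504 to 0.0668). H3f3a and H3f3b were not analysed here in mRNA-Seq.

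**Figure D5:**
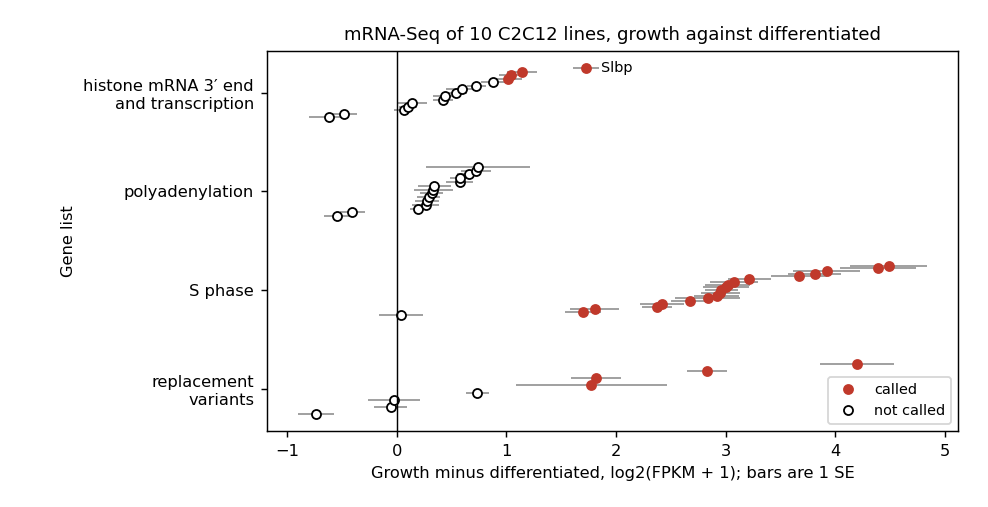
Difference between growth and differentiated C2C12 lines (x axis, log2(FPKM + 1), 10 libraries each) for the tested genes of 4 lists (y axis); points are genes, red where called, and bars are 1 SE. S phase genes lie furthest to the right, with 18 of 19 called, Slbp lies at 1.73, and no polyadenylation gene is called.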

How the data were processed

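3′-seq tables were deposited as RPM: the authors aligned reads with STAR to mm9, discarded those fitting more than 1 place, counted the rest in the 3′-UTR (for predicted H3 genes, 3000 bases after the coding sequence) and scaled to uniquely mapped reads. mRNA-Seq values were deposited as FPKM, made by the authors with TopHat2 2.0.8 and cuffdiff of Cufflinks 2.0.1 from oligo-dT libraries; how the WT reads were mapped is not given in the sources used here. Every RPM value above 0 was a whole multiple of 1 read within 0.01 reads, which gave reads and depth. Depth of mRNA-Seq is unknown.

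The members and gene lists were chosen with earlier results of these data known. Tissues were compared with limma 3.58.1 (trend, R 4.3.3) on log2(RPM + 0.1) over the 37 rows with a tissue read, called at an adjusted p below 0.05 (and, for testis, a difference of at least 1), with Benjamini-Hochberg adjustment. mRNA-Seq used limma (trend and robust) on log2(FPKM + 1), for genes with a mean of at least 1 FPKM, without a line block. Named genes were members called, members with at least 20 reads in a tissue library, and genes of the fixed lists; other members with a read were named after their values were seen. Each line has a library in both states, so lines pair the libraries. Deviations of the 2 libraries of a line from their state means correlated at 0.273 to 0.475 in the GFP-H3 lines and at 0.877 in WT. Contrasts between H3 lines were not run, since no member is in that table. Intervals are exact Poisson or binomial 95% intervals (scipy 1.17.1). Sequences and loci are from mm9 with GENCODE vM1, and plots were made with matplotlib 3.10.9. ChIP-seq and its input were not analysed here.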

Additional observations from a re-analysis of the deposited data

Results flagged for a closer look

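In mRNA-Seq, 1 library lay far from the other 9 of its state in 3 of the 26 groups checked (13 named genes in 2 states, Dixon's ratio on log2(FPKM + 1), for which chance gives about 1 in 20). All 3 were the WT line, the only one without a transgene. For H2afz it had 26.2 FPKM in growth, against 803 FPKM or more in the GFP-H3 lines, and 6.86 FPKM in differentiated cells, against 178 FPKM or more. For Lsm10 it had 20.6 FPKM in differentiated cells, against 39.2 FPKM or more. WT also stood apart over all genes tested. Deviations of its 2 libraries from their state means correlated at 0.877, against 0.475 or less in the GFP-H3 lines. The cause was not tested.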

How the results depend on the processing

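The calls among the 3′-seq genes rest on few reads and changed with the processing. Between the 4 tissues, 2 members were called, against 4 of all rows. The member count was 1 with a pseudocount of 1 RPM (all rows 4). It was 0 with at least 10 reads over the tissue libraries (all rows 3), where Hist1h4h drops out. The count also changed when 1 library was left out, which leaves 1 library in a tissue. For testis against the other tissues the member count was 3 with at least 10 reads (all rows 8). It was 2 under the other settings that kept all libraries (all rows 5 to 9), and it changed when 1 library was left out. The added member with at least 10 reads was Hist1h4a (adjusted p = 0.0181), which also took the place of Hist3h2a with a pseudocount of 0.01 RPM (0.0301). Without testis replicate 1 or 2 the member counts rose in both comparisons. There the lone testis library was assumed to vary like the others, which for several genes were all at 0, so these calls say nothing about stability. With the replicate table as a block, 0 members were called between tissues, against 2 of all rows. Deviations from the tissue means correlated at -0.286 to 0.569 between tissues of replicate 1, so whether the replicate numbers pair the libraries cannot be told. Hist3h2a lost its testis call with a pseudocount of 0.01 RPM (adjusted p = 0.132), and without testis replicate 1 (adjusted p = 0.167). Members with a read in a tissue library, recounted without each library after the data were seen, numbered 11 to 13. In mRNA-Seq, counts stayed within 1.5 times under every setting run; the block on line changed no call among the named genes. Eri1 fell just below the size limit without the H3mm13, H3mm16, H3t or WT line, and H2afz lost its call without any 1 of the H3.1, H3.2, H3t, H3mm11, H3mm12, H3mm13 and H3mm16 lines (adjusted p = 0.0514 to 0.0668) and with no filter (0.0504). A count test on reads worked out from RPM was not run, because too few values were above 0. The causes of these changes were not tested.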

Other observations

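Most reads of the replication-dependent H2B genes came from 1 gene. Hist1h2bc had 35.3 to 596 RPM in the tissue libraries and 40.7 and 291 RPM in growing and differentiated C2C12 cells. Hist1h2bp was read in testis alone, with 157 and 35.5 RPM from 566 and 261 reads. It was called by limma for testis (difference 9.55 on the log2(RPM + 0.1) scale, adjusted p = 0.000249). Hist1h2bp entered the test through its testis reads alone, with all other tissue libraries at 0, so the call adds little to the reads themselves. As for Hist1h3a, Hist1h4a and Hist3h2a, its value was higher in testis of replicate 1 than of replicate 2. Hist1h1c, a linker histone gene, had 20.6 and 12.7 RPM in skeletal muscle and 0.136 to 6.31 RPM in the other tissues.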
